A study of Mus musculus with 10 samples.

Results

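Aldo-keto reductases are NADPH-dependent enzymes that reduce aldehydes and ketones to alcohols. The AKR1B branch holds aldose reductase, which makes sorbitol from glucose, and relatives that clear lipid aldehydes and retinaldehyde. The AKR1C branch holds hydroxysteroid dehydrogenases, some of which also make prostaglandin F, and in the mouse its genes lie side by side in a cluster.

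The genes described here are 8 named members of this family, Akr1cl, Akr1b3, Akr1b7, Akr1b8, Akr1c12, Akr1c13, Akr1c14 and Akr1c19. They were chosen by gene symbol around Akr1cl, whose difference between the groups was already known, so every value of a member between control and DKO is a description with no test. Of the 8, 6 had a transcript cluster (the set of probes summarised into 1 value) of their own among the 19938 genes compared. Akr1b3 and Akr1b7 were not analysed here. Another 12 genes of the family were measured, which made 18 in all, each with 1 cluster.

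RNA of mouse pancreas, 10 samples of mixed strain background, was measured with 1 Affymetrix Mouse Gene 1.0 ST array each, and values are log2 levels. Of the samples, 5 carried the genotype label Control, with no further detail, and 5 the label PDX1Cre,Mst1-/-,Mst2L/L, called DKO. In DKO the kinase MST1 was absent from all cells and MST2 only where Cre, driven by the Pdx1 promoter of pancreatic progenitors, had acted on the floxed allele. The labels give neither age nor sex and do not say whether each array was a different animal, so errors measure the spread between these samples. Xist, the RNA that coats the inactive X chromosome, was high on 3 control and 2 DKO arrays, so each group held both sexes. By its title, the study concerns Hippo signalling, the pathway of the MST kinases, in the exocrine pancreas.

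Array medians over all clusters were 7.12 to 7.15, and pairs of arrays correlated across genes with r of 0.976 to 0.995. Stk4, which codes for MST1, read 5.01 to 5.23 in control and 5.07 to 5.21 in DKO, and gave no check of the labels. Sex-linked genes, 4 in all, read 3.99 to 5.75 on arrays that do not express them. This range is taken here as the level of an unexpressed cluster. Its upper end was Xist on control replicate 5, and the background of other clusters may differ. The acinar markers Cpa1 (13.52 to 13.62) and Ctrb1 (13.64 to 13.73) were high on every array. DKO replicate 1 stood apart, with a mean of 10.42 over 20 hepatocyte markers against 6.33 to 7.04 on the other 9 arrays, and all 20 were highest there. Differences of the family genes are shown with and without this array, and most other values include it.

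The promoter of Akr1cl is shown because this gene had the clearest difference between groups, and those of Akr1c12 and Akr1c13 because they are the most alike of the members in this window. Each sequence is the 250 bases before the start in RefSeq, build GRCm38.p6, read 5′ to 3′ on the strand of the gene. Akr1cl lies at chr1:65032760-65033009 (minus strand), Akr1c12 at chr13:4279400-4279649 (minus strand) and Akr1c13 at chr13:4190937-4191186 (plus strand). Capitals mark matches to any of the searched motifs.
Akr1cl: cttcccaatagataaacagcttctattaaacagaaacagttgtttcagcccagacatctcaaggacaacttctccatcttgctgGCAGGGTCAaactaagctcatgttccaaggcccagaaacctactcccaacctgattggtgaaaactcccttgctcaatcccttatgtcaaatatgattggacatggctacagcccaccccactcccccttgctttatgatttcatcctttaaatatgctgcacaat
Akr1c12: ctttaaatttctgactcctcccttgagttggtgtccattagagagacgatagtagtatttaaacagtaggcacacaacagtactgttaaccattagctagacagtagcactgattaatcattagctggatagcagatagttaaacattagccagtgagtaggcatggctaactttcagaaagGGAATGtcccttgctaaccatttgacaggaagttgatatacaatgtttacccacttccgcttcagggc
Akr1c13: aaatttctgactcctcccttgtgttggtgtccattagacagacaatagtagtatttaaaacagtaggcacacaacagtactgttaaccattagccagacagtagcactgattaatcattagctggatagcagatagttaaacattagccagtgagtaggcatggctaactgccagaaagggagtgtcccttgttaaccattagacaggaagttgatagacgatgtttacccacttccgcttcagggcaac

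Letters of 4 motifs were searched on both strands of these windows. They were CATTCC, bound by the TEAD factors that partner YAP, TGACNNNGC, the antioxidant response element bound by NRF2, TGANTCA, bound by AP-1, and AAGGTCA, bound by NR5A nuclear receptors. A stretch such as an extended AP-1 site can match both of the middle motifs. The Akr1cl window held 1 match, to the antioxidant response element on the strand opposite to the printed one at position -166, and none to CATTCC. The Akr1c12 window held CATTCC on the other strand at position -68, and the Akr1c13 window held no match, although 92.5% of the aligned positions of the pair were identical. Of 20 promoters of 16 measured family genes, 2 held CATTCC and 3 the antioxidant response element, against 12.6% and 10.2% of all 32851 promoters. AP-1 letters were in 0 of 20 (6.75% of all promoters) and NR5A letters in 1 (4.08%). These matches describe letters and not binding.

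Akr1cl was near the unexpressed level in control pancreas and above it in 3 of 5 DKO samples. Taken from replicate 1 to 5, control arrays read 4.51, 4.54, 4.60, 4.66 and 4.76, and DKO arrays 6.48, 6.27, 5.69, 5.56 and 7.22. The groups did not overlap, and the lowest 2 DKO arrays, replicates 4 and 3, still lay within the range of unexpressed clusters. The mean went from 4.61 ± 0.10 to 6.24 ± 0.67 (SD, n = 5 each), a difference in log2 signal of 1.63 ± 0.26 (SE). Since control and 2 DKO arrays lay within the unexpressed range, this is no measure of the fold in RNA. In whole tissue, more cells that express a gene and more of its RNA per cell cannot be told apart.

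The DKO arrays varied more in Akr1cl than the controls did, as the SDs show. DKO replicate 5 was highest, and without it the difference was 1.39, while without DKO replicate 4 it was 1.80. Without DKO replicate 1, the array with hepatocyte transcripts, it was 1.57 ± 0.28 (SE), so the difference was nearly as large without that array. With the hepatocyte marker mean as a covariate it was 1.55. Duct markers also moved with the groups as a mean. Their mean over 13 genes was 9.86 to 10.04 in control and 10.14 to 10.33 in DKO, with 5 of 13 higher by limma (2.08% of all genes were) and none lower. Krt7, a keratin of duct cells, stood at 8.74 to 9.18 in control and 9.87 to 10.50 in DKO. Not every duct marker was higher, since the log2 difference was above 0 in 9 of the 13 and below 0 in 4. It ranged from -0.34 to 1.37. The mean of 13 acinar markers was 12.34 to 12.49 in control and 11.92 to 12.33 in DKO (12.17 to 12.33 without DKO replicate 1). By limma 1 of the 13 was lower (0.366% of all genes were) and none higher. The part of these cell types in the Akr1cl difference was not tested.

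**Figure D1:**
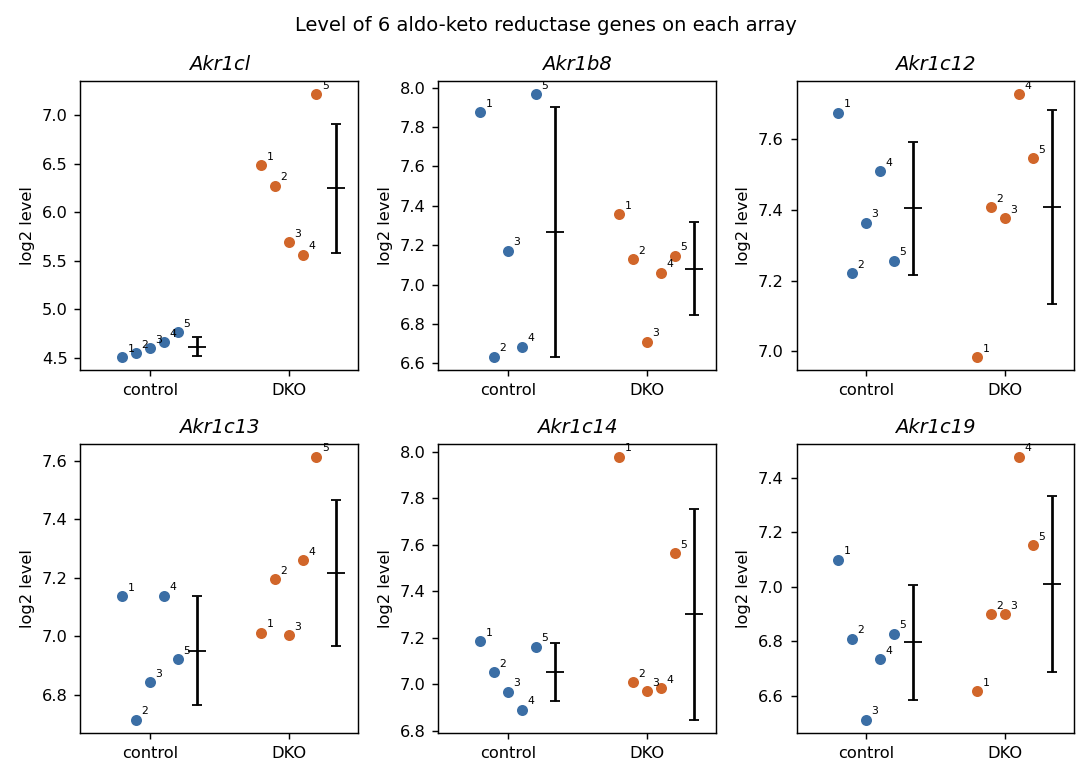
Log2 level (vertical axis, a separate scale per panel) of the 6 measured members on each array, in control (blue) and DKO (orange); digits are replicate numbers and bars show the mean ± SD (n = 5). The groups are apart in Akr1cl, from 4.51 to 4.76 in control and 5.56 to 7.22 in DKO, and overlap in the other 5 genes.

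Among the members 1 of 6, Akr1cl, lay among the 2.08% of all genes that passed an adjusted p of 0.05 as higher in DKO, and none among the 0.366% that were lower (2.44% in either direction, limma). Likewise 1 of 6 had groups that did not overlap, against 4.8% of all genes. Nothing is read from these counts, since the contrast was known when the members were chosen.

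Akr1b8, the fibroblast growth factor-induced member of the aldose reductase branch, varied more between control arrays than between the groups. In replicate order the controls read 7.87, 6.63, 7.17, 6.68 and 7.97, and the DKO arrays 7.36, 7.13, 6.71, 7.06 and 7.15. Control replicates 1 and 5 were above all other arrays, and the DKO range lay inside the control range. The means were 7.27 ± 0.63 and 7.08 ± 0.24 (SD, n = 5 each), a log2 difference of -0.19 ± 0.26 (SE), which went from -0.34 without control replicate 2 to -0.01 without control replicate 5. Akr1b10, its neighbour, read 8.36 to 8.64 in control and 8.39 to 8.56 in DKO.

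The AKR1C members stand in the order Akr1c14, Akr1c18, Akr1c13, Akr1c19 and Akr1c12 along the chromosome, followed by Akr1c6, Akr1c20, Akr1c21 and Akr1e1. None of the measured genes of this cluster had groups that did not overlap, beside 4.8% of all genes. The members are close relatives, Akr1c12 and Akr1c13 most of all, and probes may be shared, so single values are uncertain.

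Akr1c13 differed by 0.27 ± 0.12 (SE, log2), which went from 0.17 without DKO replicate 5 to 0.32 without DKO replicate 3. Its levels were 7.14, 6.71, 6.84, 7.14 and 6.92 in control and 7.01, 7.20, 7.00, 7.26 and 7.61 in DKO, replicates 1 to 5. All 5 DKO arrays were above the control mean of 6.95, but 2 of them lay below the highest control array. Akr1c12 stood at 7.67, 7.22, 7.36, 7.51 and 7.26 in control and 6.98, 7.41, 7.38, 7.73 and 7.55 in DKO, in the same order. Its means, 7.40 ± 0.19 and 7.41 ± 0.27 (SD, n = 5 each), differed by less than the spread between arrays, and the difference changed sign under other scalings and was 0.11 without DKO replicate 1. Akr1c19, an NAD-dependent relative, read 7.10, 6.81, 6.51, 6.73 and 6.83 in control and 6.62, 6.90, 6.90, 7.48 and 7.15 in DKO. The difference was 0.21 ± 0.15 (SE), 0.10 without DKO replicate 4, 0.14 without control replicate 3 and 0.31 without DKO replicate 1. DKO replicate 4 was the highest and replicate 1 the lowest DKO array in both Akr1c12 and Akr1c19.

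Akr1c14, a hydroxysteroid dehydrogenase that is strongly expressed in liver, was raised on 2 arrays only. Its control levels were 7.18, 7.05, 6.97, 6.89 and 7.16, and its DKO levels 7.98, 7.01, 6.97, 6.98 and 7.56, replicates 1 to 5. DKO replicates 1 and 5 lay above every control, and the other 3 DKO arrays within the control range. The difference was 0.25 ± 0.18 (SE) on all arrays and 0.08 ± 0.12 (SE) without DKO replicate 1. The hepatocyte marker mean was 10.42 on DKO replicate 1 and 6.96 on DKO replicate 5, the latter within the range of controls, 6.41 to 7.04.

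Other hepatic genes of the family were high on DKO replicate 1 alone. Akr1c6, the hepatic hydroxysteroid dehydrogenase, read 8.70 there and 4.95 to 5.17 on the other 9 arrays. Akr1c20 read 7.05 there and 4.75 to 4.92 elsewhere. Akr1d1, the steroid reductase of bile acid synthesis, read 6.73 there and 4.69 to 5.11 elsewhere. On 9 of 10 arrays all 3 genes were thus within the range of unexpressed clusters. Albumin (Alb) was 13.40 on that array, against 8.54 to 10.86 elsewhere, and Cyp2e1, a cytochrome of mature hepatocytes, was 9.41, against 4.71 to 5.26. The upper ends of both ranges were DKO replicate 5, above the highest controls (10.51 and 5.12), though the mean of 20 hepatocyte markers was not. For Cyp2e1 that level was within the range of unexpressed clusters. The differences of Akr1c6, Akr1c20 and Akr1d1 were 0.79, 0.44 and 0.27 on all arrays, and 0.07, 0.00 and -0.11 without DKO replicate 1.

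**Figure D2:**
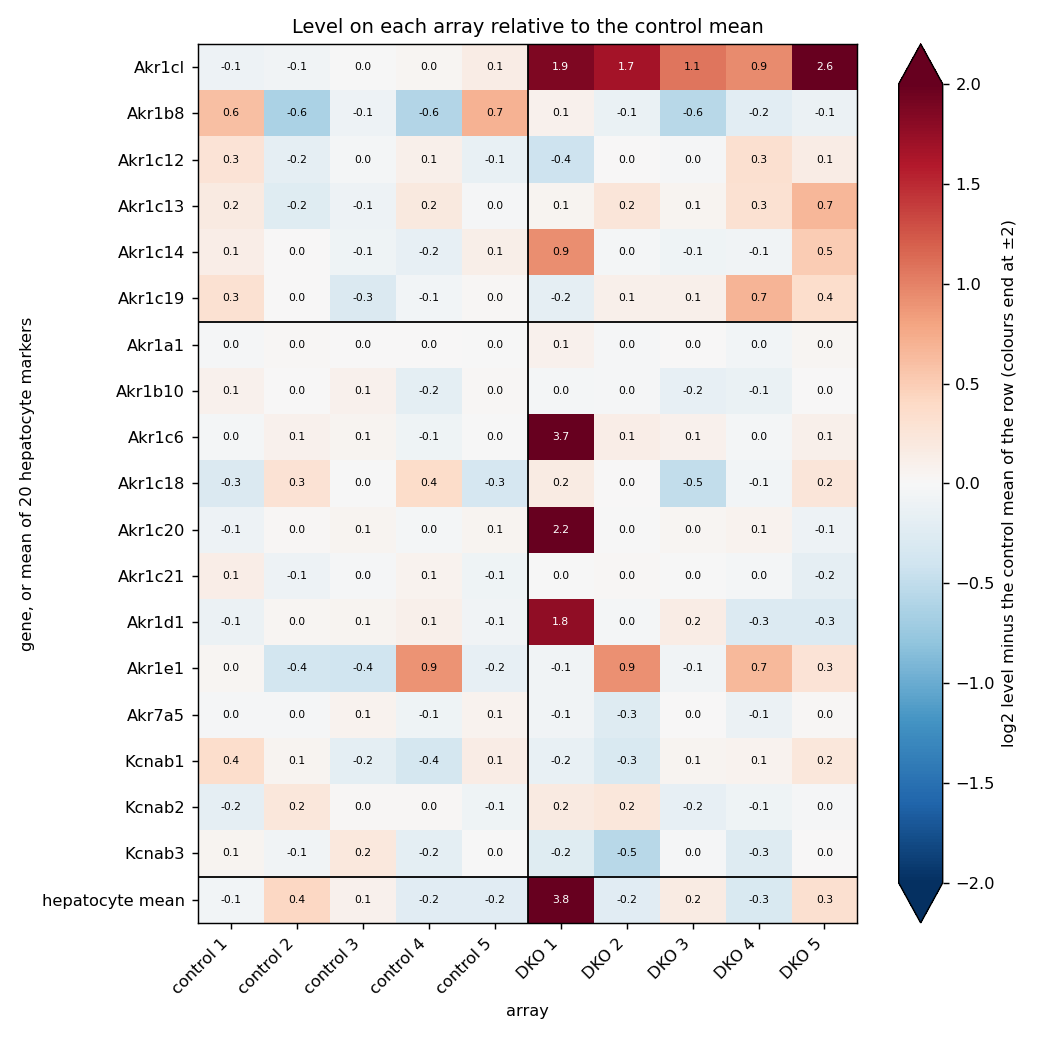
Log2 level of the 18 measured family genes and of the mean of 20 hepatocyte markers (rows) on each array (columns), after subtraction of the control mean of the row; the upper block holds the 6 members and colours end at ±2. Akr1cl is raised on all 5 DKO arrays, while Akr1c6, Akr1c20 and Akr1d1 are raised on DKO replicate 1, as is the hepatocyte mean (10.42 before subtraction).

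The remaining family genes had no difference past the test. Akr1a1, the general aldehyde reductase, was the steadiest of the 18, at 12.20 to 12.25 in control and 12.18 to 12.32 in DKO. Akr7a5, an aldehyde reductase of another subfamily, read 9.38 to 9.55 and 9.22 to 9.49. Akr1c18, the dehydrogenase that inactivates progesterone, read 6.54 to 7.25 and 6.40 to 7.13. Akr1c21 was within the unexpressed range on every array, at 4.06 to 4.38. The potassium channel beta subunits, which share the reductase fold, differed by -0.02 (Kcnab1), 0.03 (Kcnab2) and -0.21 ± 0.11 (SE, Kcnab3). Kcnab3 went from -0.27 without DKO replicate 5 to -0.13 without DKO replicate 2. The sign of Kcnab1 and of Kcnab2 turned when 1 array was left out. Of all 12 measured family genes outside the members 0 passed limma, beside 2.44% of all genes. An unadjusted p under 0.05 was found in 0 of the 12 and in 14.8% of all genes. The median log2 difference of the 12 was -0.005, beside -0.006 over all genes, and that of the 6 measured members was 0.23.

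Akr1e1, an anhydrofructose reductase at the end of the AKR1C cluster, had an uneven level in both groups. It read 8.25 in control replicate 4, against 6.95 to 7.39 in the other controls. In DKO it read 8.26 and 8.01 in replicates 2 and 4, and 7.28 to 7.62 in the others. The difference between groups was 0.34 ± 0.27 (SE), 0.56 without control replicate 4 and 0.19 without DKO replicate 2.

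**Figure D3:**
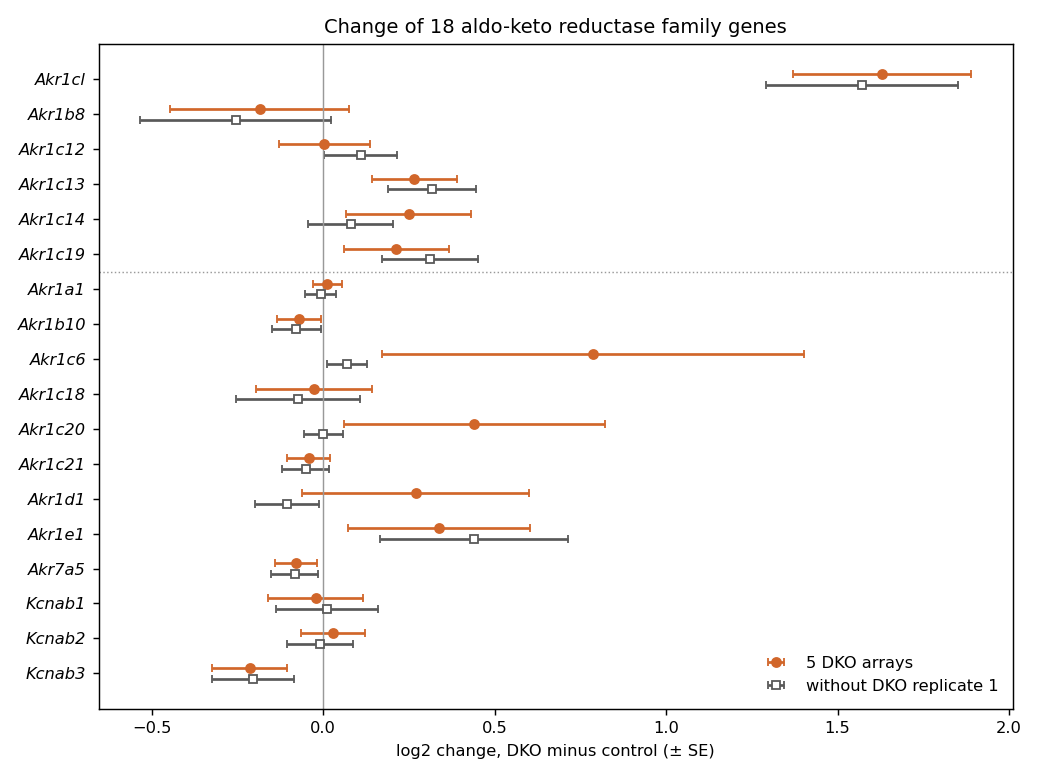
Log2 difference, DKO minus control (horizontal axis, bars ± SE), of the 18 family genes, on all arrays (filled circles) and without DKO replicate 1 (open squares); the 6 members are above the dotted line. Akr1cl keeps 1.57 of its 1.63 without that array, while Akr1c6 goes from 0.79 to 0.07.

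By the SD pooled over both groups, each of the 6 members varied more than the median gene. The groups were unequal in some, with an SD of 0.10 in control and 0.67 in DKO for Akr1cl, and 0.12 and 0.45 for Akr1c14. The pooled within-group SD was 0.48 for both Akr1cl and Akr1b8, 0.33 for Akr1c14, 0.27 for Akr1c19, 0.23 for Akr1c12 and 0.22 for Akr1c13, against a median of 0.122 over all genes. With 5 arrays per group this limits what can be seen in these genes, since the SE of a difference was 0.12 to 0.26 for the members and 0.0754 for the median gene.

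None of the measured genes next to Akr1cl on the chromosome passed the test, beside 2.44% of all genes. In the gene order of the GRCm38.p6 assembly, the nearest measured genes before it were Plekhm3 (log2 difference 0.06 ± 0.07 SE, limma adjusted p = 0.702) and the Wnt receptor gene Fzd5 (0.31 ± 0.15 SE, adjusted p = 0.369). Those after it were the lens crystallin genes Crygd (-0.05 ± 0.09 SE, adjusted p = 0.803) and Crygc (-0.04 ± 0.06 SE, adjusted p = 0.801). All 4 had overlapping groups.

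The genes whose pattern was nearest to Akr1cl were found by the root mean square difference over the 10 arrays, after the control mean of each gene had been taken off. The closest was Ankrd1, a nuclear ankyrin repeat protein and YAP target, at 0.31 log2 units. Sema3e, a secreted guidance protein, followed at 0.39, then Macc1, a regulator of MET expression, at 0.42, the chemokine gene Cxcl12 at 0.43 and the epithelial surface protein gene Plet1 at 0.44. The median over the other 19937 genes was 1.24. Ankrd1 read 5.94, 5.78, 6.05, 5.97 and 5.82 in control and 7.95, 7.20, 7.10, 7.11 and 7.75 in DKO, replicates 1 to 5. Like Akr1cl, its 2 highest arrays were DKO replicates 1 and 5. Being chosen by this likeness, these genes necessarily differ between the groups, so no test is given.

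**Figure D4:**
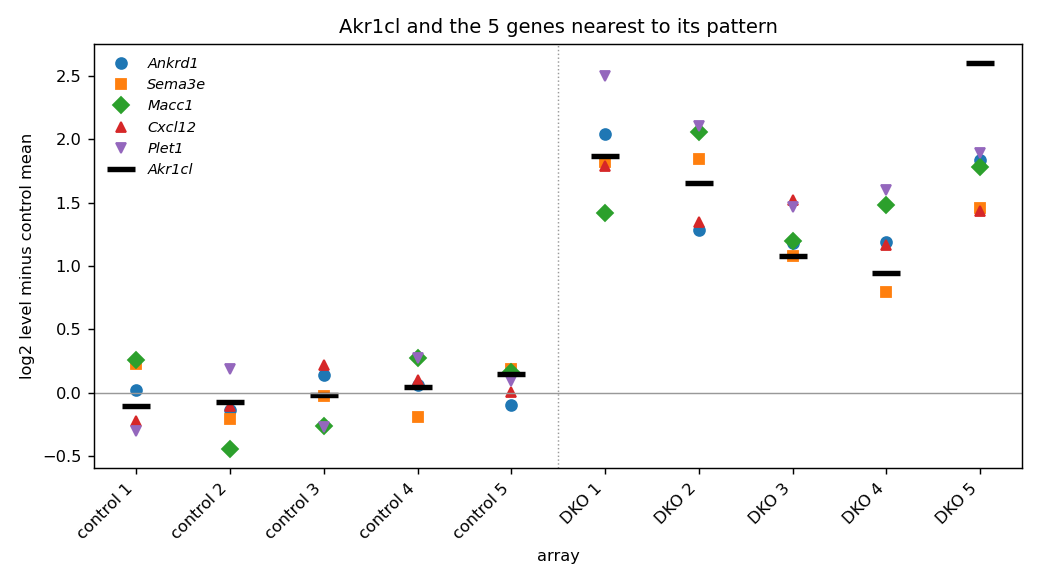
Log2 level minus the control mean of each gene (vertical axis) on each array (horizontal axis), for Akr1cl (black bars) and the 5 genes nearest to its pattern (coloured symbols). Akr1cl exceeds all 5 on DKO replicate 5, where its level was 7.22, and lies below 4 of them on DKO replicate 4, where it was 5.56.

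Genes that act beside these reductases were read from lists of related pathways. The lists were chosen with earlier results of these data known, so nothing is read from their counts and their p values are descriptive. Prostaglandin genes come first, because AKR1B and AKR1C enzymes can make prostaglandin F. Of 18 measured genes of prostaglandin synthesis and breakdown 1 rose and none fell, against the 2.44% of all genes that passed. Ptgds, the lipocalin-type prostaglandin D synthase, stood at 8.01, 8.36, 8.17, 8.14 and 8.26 in control and 9.31, 9.32, 9.04, 9.07 and 9.25 in DKO. All DKO arrays were above all controls, and the log2 change was 1.01 ± 0.08 (SE, limma adjusted p = 0.000139), or 2.02-fold. The next by p were Ptges3, a cochaperone with prostaglandin E synthase activity (0.13), Pla2g4a, the phospholipase that frees arachidonate (0.34), and Hpgds, the prostaglandin D synthase of blood cells (0.32), with adjusted p of 0.268, 0.270 and 0.311. The list median was 0.11, with 14 of 18 above 0.

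Of 9 prostaglandin receptor genes 1 rose and none fell, beside 2.08% and 0.366% of all genes. Ptgfr, the receptor of prostaglandin F, read 5.80, 5.95, 6.03, 5.90 and 5.74 in control and 6.43, 6.32, 6.50, 6.34 and 6.37 in DKO. The groups did not overlap, with a log2 change of 0.51 ± 0.06 (SE, limma adjusted p = 0.00200), although control replicate 5 was at the upper edge of the unexpressed range. The other 8 receptors were all slightly below 0, among them Ptgdr (-0.14), Ptger4 (-0.19) and Ptgir (-0.10), with adjusted p of 0.519 or more, and the list median was -0.05.

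Of 20 steroid dehydrogenases, reductases and related genes 1 rose and none fell, beside 2.08% and 0.366% of all genes. Cyp11a1, the enzyme that cuts the side chain of cholesterol at the start of steroid synthesis, read 5.49, 5.20, 5.69, 5.19 and 5.51 in control, within the unexpressed range, and 6.70, 6.72, 6.12, 6.06 and 6.20 in DKO. The log2 change was 0.94 ± 0.15 (SE, limma adjusted p = 0.00957), without overlap, and with the control in that range it is a difference in signal, not a measured fold in RNA. The adrenal cortex genes Cyp11b1 (4.79 to 5.21 over all arrays) and Cyp21a1 (5.43 to 5.95) were near the unexpressed range. In both groups Cyp11b2 (5.79 to 6.36) and Nr5a1 (6.55 to 7.21) were above it on every array. Whether Cyp11b2 and Nr5a1 were expressed or their clusters had a higher background was not tested. Of 9 adrenal markers 0 passed limma, beside 2.44% of all genes (0 at an unadjusted p of 0.05, beside 14.8%). The mean of the 9 was 6.45 to 6.59 in control and 6.37 to 6.61 in DKO. Hsd17b12, a fatty acid elongation enzyme (0.23), the peroxisomal enzyme gene Hsd17b4 (0.15) and the lipid droplet protein gene Hsd17b11 (0.18) followed by p, with adjusted p of 0.166, 0.175 and 0.263. The list median was 0.13.

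Aldehydes and retinaldehyde are also oxidised by aldehyde dehydrogenases. Of 25 aldehyde and alcohol dehydrogenase genes 0 passed limma, beside 2.44% of all genes (5 did at an unadjusted 0.05, beside 14.8%). The list median was -0.04. Aldh1b1, a mitochondrial enzyme of progenitor cells in the pancreas, read 8.24 to 9.12 in control and 6.89 to 8.23 in DKO (log2 difference -0.96 ± 0.26 SE, adjusted p = 0.0900), without overlap. Aldh1a1, a retinaldehyde dehydrogenase, was at 0.55 (adjusted p = 0.0652), Aldh1l2 of mitochondrial folate metabolism was at -0.57 (0.0936) and Aldh6a1 of valine breakdown at -0.24 (0.130). Among 21 retinoid genes 0 passed limma, beside 2.44% of all genes (4 at an unadjusted p of 0.05, beside 14.8%). The retinol uptake receptor gene Stra6 read 8.30 to 9.66 in control and 7.46 to 8.34 in DKO (-0.98 ± 0.26 SE, adjusted p = 0.0893). The retinoic acid receptor genes Rarg (0.17) and Rara (0.27) and the retinol dehydrogenase gene Rdh10 (0.43) had adjusted p of 0.131 to 0.204.

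Several aldo-keto reductases are known targets of NRF2, the factor that drives the antioxidant response. Of 34 measured genes of this pathway 8 had an unadjusted p under 0.05 (14.8% of all genes had), and the median was 0.04. By limma adjusted over all genes 1 fell and none rose, beside 0.366% and 2.08% of all genes. The one was Gstp1, a glutathione transferase, at 11.66 to 11.80 in control and 11.31 to 11.63 in DKO (log2 change -0.32 ± 0.07 SE, limma adjusted p = 0.0353). It no longer passed when any of 7 arrays was left out: control replicates 1, 2, 3 and 5 and DKO replicates 1, 2 and 4 (adjusted p up to 0.0949). Gsta3, another glutathione transferase, was at 0.56 (adjusted p = 0.0732), the epoxide hydrolase gene Ephx1 at 0.40 (0.126) and the oxidative stress gene Osgin1 at 0.27 (0.165). Of 11 polyol and fructose genes 0 passed limma, beside 2.44% of all genes (2 at an unadjusted p of 0.05, beside 14.8%). The aldolase gene Aldoc differed by -0.33 (adjusted p = 0.0624), and Khk, which phosphorylates fructose, read 8.14 to 8.24 in control and 7.82 to 8.06 in DKO (-0.22, adjusted p = 0.0649). The fructose carrier gene Slc2a5 (-0.18) and the hexokinase gene Hk1 (-0.11) had adjusted p of 0.388 and 0.407.

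**Figure D5:**
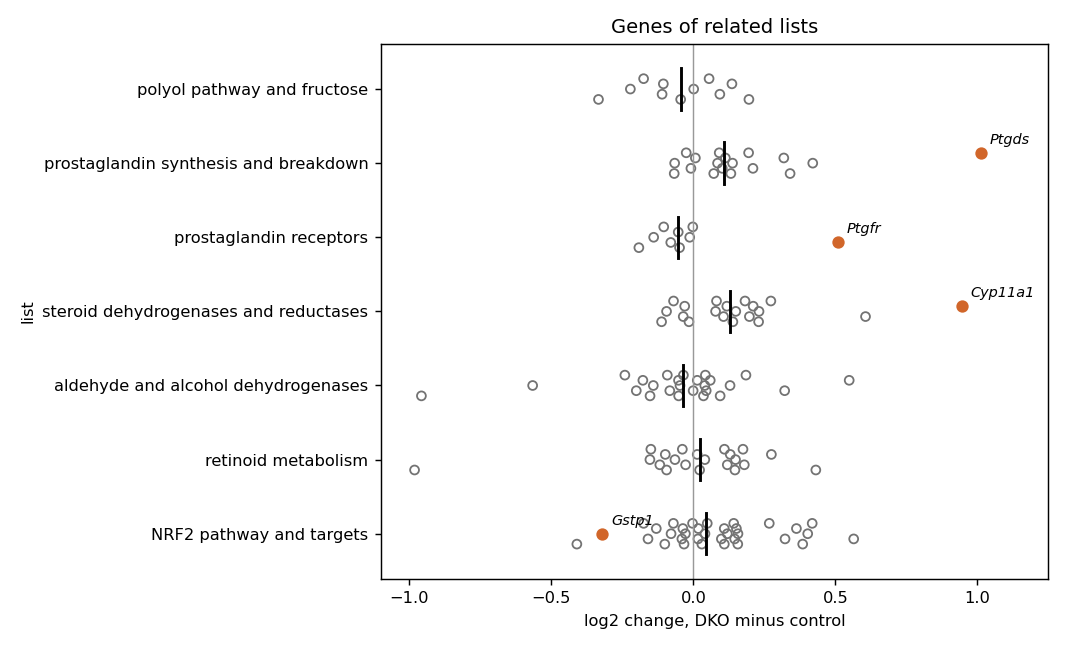
Log2 difference, DKO minus control (horizontal axis), of each measured gene in 7 related lists (rows); filled symbols passed an adjusted p of 0.05 in limma, open ones did not, and black lines are list medians. Ptgds (1.01), Cyp11a1 (0.94) and Ptgfr (0.51) passed as higher and Gstp1 (-0.32) as lower.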

How the data were processed

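Log2 levels deposited by the authors, 1 per transcript cluster and sample, were used without further normalization or filter. They were made with Affymetrix Expression Console, per the submitters' processing notes, and the summarisation settings are not stated there. Of 35556 clusters 21789 had 1 gene symbol by the platform annotation, and the brightest of a gene over all arrays stood for it. Symbols were updated through a GRCm38.p6 RefSeq table in which the gene identifiers of 21698 clusters were found.

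DKO was compared with control in limma 3.58.1 (R 4.3.3; moderated two-sided test, 10.96 total degrees of freedom), Benjamini-Hochberg adjusted over all 19938 genes, threshold 0.05. The fit was tested on simulated data. Errors are SDs over 5 arrays or SEs from the fit.

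The members and lists were chosen with earlier results of these data known. Named genes are the measured family, up to 4 genes of each list with the smallest p, the 5 nearest Akr1cl in pattern without predicted loci, the measured neighbours of Akr1cl, and defining markers. Duct and liver markers named were chosen after their values were seen. Alternatives covered scaling, filters, variance models, array weights, covariates, the clusters of a gene, the replicate block and left-out arrays.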

Additional observations from a re-analysis of the deposited data

Results flagged for a closer look

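In 3 of the 36 groups of 5 arrays looked at (18 family genes in each genotype), 1 array lay apart from the other 4 by Dixon's limit, which chance passes in about 1 in 20 groups. All 3 were DKO replicate 1. Akr1c6 was 8.70 there and 4.99 to 5.17 on the other DKO arrays, Akr1c20 was 7.05 against 4.75 to 4.92, and Akr1d1 was 6.73 against 4.69 to 5.11. The hepatocyte marker mean was 10.42 on this array and 6.33 to 6.96 on the other DKO arrays, and its part in these levels was not tested.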

How the results depend on the processing

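The Akr1cl difference ranged from 1.39 to 1.80 on leaving out each array in turn and stayed within 1 SD of 1.63 under every alternative that kept it; the dimmest 25% of genes included it, so it had no value under either filter. Of 412 values of family genes under alternatives 1 moved by 1 SD or more (Akr1a1, -0.03 after subtraction of array medians). The sign changed in 28 of the 412, in 6 genes: Akr1d1 (0.27, and -0.11 without DKO replicate 1 or -0.09 with the hepatocyte covariate), and Akr1a1, Akr1c12, Akr1c18, Kcnab1 and Kcnab2, which lay within 0.03 of 0 on all arrays. The 487 genes past the test became 298 with unmoderated variance, 178 with the replicate block, 151 without control replicate 2 and DKO replicate 4 together, 163 at an adjusted p of 0.01 and 260 to 433 without 1 array (268, 260, 316, 324 and 303 without control replicate 2, control replicate 3 and DKO replicates 1, 4 and 5). They were 414 higher and 73 lower, against 321 and 125 after quantile normalization again and 271 and 103 after subtraction of medians. The cause of these shifts was not tested.

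The NRF2 count of 1 became 2 without the dimmest 50% of genes, 0 with unmoderated variance, the hepatocyte covariate, the replicate block, the stricter threshold or without both arrays, and 0 to 1 without 1 array. From 0, the aldehyde dehydrogenase count became 1 without the dimmest 50% and 2 with array weights, the polyol count 2 after quantile normalization or without the dimmest 50% and 1 after median subtraction or with array weights, and the retinoid count 1 with Xist as a covariate; without 1 array each was 0 to 1. The steroid count of 1 became 0 without the dimmest 25% or 50% and with the replicate block (Cyp11a1 adjusted p = 0.0512), and the receptor count 0 without the dimmest 50%, where filters had removed Cyp11a1 and Ptgfr. Replicate numbers were not taken as pairs. Same-numbered deviations correlated with r from -0.27 to 0.29 across genes, and no array was matched best by its own number. These values cannot exclude that some arrays shared a batch. The block changed no other call of a pathway gene. The number of arrays limits the precision.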

Other observations

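Among controls, Akr1b8 was highest on the 2 arrays with low Xist, which coats the inactive X chromosome. It read 7.87 and 7.97 on control replicates 1 and 5, where Xist was 5.13 and 5.75, and 6.63, 7.17 and 6.68 on replicates 2 to 4, where Xist was 12.15 to 12.29. In DKO it read 7.13, 6.71 and 7.15 on the 3 arrays with low Xist (replicates 2, 3 and 5) and 7.36 and 7.06 on those with high Xist (replicates 1 and 4). This split was noticed after the values were seen, and it was not tested.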
